A study of Mus musculus with 9 samples.

Results

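NR4A2 ChIP-seq signal at the genes for the proteins of the cytosolic and the mitochondrial ribosome was compared between ventricles of Nr4a2-icTg and control mice. The genes were chosen by symbol alone: RefSeq protein-coding genes of build GRCm38 whose symbols start with Rpl or Rps and a digit (without the Rps6k kinases), with Rplp, or with Mrpl or Mrps and a digit, together with Fau and Rpsa. There were 170 such genes. By their symbols, 85 were assigned to the cytosolic ribosome (52 of the large and 33 of the small subunit) and 78 to the mitochondrial ribosome (49 large, 29 small). A further 7 carry a matching symbol only. Whether each assigned gene encodes a subunit protein was not checked gene by gene. A region was counted for a gene when it touched the gene's span extended by 10 kb on each side. This gave 272 regions at 154 of the genes, out of 16884 regions in all, with 152 regions at cytosolic and 122 at mitochondrial genes. The remaining 16 genes had no region. Among them were Rpl10l and Rpl39l, paralogs used mainly in testis, and Mrpl19, Mrpl43, Mrpl50, Mrpl51, Mrps18c, Mrps31, Mrps5 and Mrps9.

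Ribosomes join amino acids into protein, and each is built from a large and a small subunit of RNA and protein. The mitochondrial ribosome translates only the few messages encoded in mitochondrial DNA, which are core subunits of the respiratory chain and ATP synthase, but all of its proteins are encoded in the nucleus. Genes for cytosolic ribosomal proteins are transcribed strongly in nearly every cell, and their messages start in a pyrimidine tract through which mTOR controls translation. NR4A2 is an orphan nuclear receptor that binds the NBRE, an extended nuclear receptor half-site, without a known natural ligand.

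The Nr4a2-icTg mice came from a cross of the EGE-GJ-095 ROSA26-KI line, a conditional Nr4a2 knock-in with a reporter, with a Myh6-cre/Esr1* transgenic line of The Jackson Laboratory. The controls were littermates with αMHC-MerCreMer, the inducible Cre that the NR4A2 mice carry too, so that both groups were exposed to Cre and to tamoxifen. All 6 mice, 3 NR4A2 and 3 Control, were 8 to 9 weeks old when they received 1 injection of tamoxifen at 40 mg/kg, and ventricles were taken on day 3, per the labels. The αMHC (Myh6) promoter restricts the transgene to cardiomyocytes, whereas the chromatin came from whole ventricle with all its cell types. A region at a gene is not a measure of its expression. All 8 cardiomyocyte marker genes looked up had a region, against 3 of 7 fibroblast, 4 of 6 endothelial and 1 of 6 leukocyte markers. Of the 8 cardiomyocyte genes 6 had a higher region in NR4A2 hearts and 1 a lower one, beside 14.2% and 6.25% of all genes with a region. These 8 genes held 214 regions, of which 18 were higher and 2 lower (median log2 fold change 0.31), beside 14.7% and 3.17% of all regions. Of the 4 endothelial genes with a region 2, Pecam1 (-0.69) and Tie1 (-0.90), had a lower one, in 2 of 13 regions (median -0.40). The 4 fibroblast regions (median -0.11) and the 2 leukocyte regions (median -0.27) gave 0 higher and 0 lower calls. The part of differences in cell makeup in the results below was not tested. Each p-value sets the difference between groups against the spread between these mice, which limma moderates with that of all regions.

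Values are the authors' CPM, which sum to between 989059 and 1.01e+06 per library. The scaling was thus close to each library's reads in all regions, but not exactly by them. A difference between groups in total signal cannot be seen in such values. NR4A2 libraries held 637635 to 1035856 reads in regions and Control libraries 549700 to 1027394, so that 1 read was worth 0.955 to 1.81 CPM. Fold changes are on the log2(CPM + 1) scale, NR4A2 over Control, and a region was called when its adjusted p in limma, over all 16884 regions, was under 0.05. Control hearts carry the Cre transgene without the Nr4a2 knock-in. Endogenous NR4A2 and other sources of their signal cannot be told apart, because no sample of the series lacks endogenous Nr4a2. The input library was not analysed here.

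The windows below run from 250 bases before to 20 bases after an annotated start, 5′ to 3′ on the gene's strand, in RefSeq GRCm38.p6. Rpl3l, Fau, Rpl14 and Mrps14 are shown as examples of genes with a called start region. Rpl35a is shown because it alone among the covered starts of these genes holds the NBRE letters, and Rps6 because its start region had the highest CPM of the cytosolic genes. The windows of Mrps7, Mrpl53 and Mrpl49, whose start regions were also called, are not shown. Capitals mark, on either strand, the NBRE (AAAGGTCA), the half-site it contains (AGGTCA), and the ETS (CCGGAAG), YY1 (AAGATGGC) and NRF1 (GCATGCGC) letters. The windows are Rpl3l at chr17:24732435-24732704 (plus strand, the downstream of its annotated starts), Rpl35a at chr16:33056203-33056472 (plus), Fau at chr19:6057697-6057966 (plus), Rpl14 at chr9:120571267-120571536 (plus), Mrps14 at chr1:160194965-160195234 (plus) and Rps6 at chr4:86857348-86857617 (minus).
Rpl3l: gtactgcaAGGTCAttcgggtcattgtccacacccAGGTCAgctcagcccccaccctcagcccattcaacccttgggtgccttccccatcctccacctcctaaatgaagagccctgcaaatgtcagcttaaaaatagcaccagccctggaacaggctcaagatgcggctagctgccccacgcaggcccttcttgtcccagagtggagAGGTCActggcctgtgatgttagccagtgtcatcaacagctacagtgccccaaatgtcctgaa
Rpl35a: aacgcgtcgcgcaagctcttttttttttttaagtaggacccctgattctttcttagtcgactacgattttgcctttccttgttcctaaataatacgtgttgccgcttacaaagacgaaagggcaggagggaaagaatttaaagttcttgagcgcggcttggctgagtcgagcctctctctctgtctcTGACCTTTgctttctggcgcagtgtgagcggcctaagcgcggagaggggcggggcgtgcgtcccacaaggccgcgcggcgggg
Fau: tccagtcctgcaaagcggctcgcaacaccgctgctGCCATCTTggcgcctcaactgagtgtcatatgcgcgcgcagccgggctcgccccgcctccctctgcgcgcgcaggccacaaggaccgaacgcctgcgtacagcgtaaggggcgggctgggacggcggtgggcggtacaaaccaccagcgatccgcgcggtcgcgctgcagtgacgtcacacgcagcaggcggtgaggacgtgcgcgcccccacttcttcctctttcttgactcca
Rpl14: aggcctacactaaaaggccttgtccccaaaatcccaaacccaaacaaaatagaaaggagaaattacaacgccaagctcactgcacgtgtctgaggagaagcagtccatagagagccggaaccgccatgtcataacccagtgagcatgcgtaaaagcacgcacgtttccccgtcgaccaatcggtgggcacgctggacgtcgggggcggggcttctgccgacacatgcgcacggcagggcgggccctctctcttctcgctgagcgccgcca
Mrps14: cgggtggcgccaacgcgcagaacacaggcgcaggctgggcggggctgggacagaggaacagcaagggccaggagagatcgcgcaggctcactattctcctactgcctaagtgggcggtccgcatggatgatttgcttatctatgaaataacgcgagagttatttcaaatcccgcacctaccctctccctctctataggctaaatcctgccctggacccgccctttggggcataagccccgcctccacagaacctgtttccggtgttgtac
Rps6: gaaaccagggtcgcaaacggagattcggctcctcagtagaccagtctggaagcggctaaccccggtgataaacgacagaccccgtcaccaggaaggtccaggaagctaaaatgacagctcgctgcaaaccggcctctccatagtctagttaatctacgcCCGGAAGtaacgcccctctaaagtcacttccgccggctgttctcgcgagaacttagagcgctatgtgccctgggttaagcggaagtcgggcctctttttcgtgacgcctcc

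Most starts of ribosomal protein genes had a region in the list that both groups share. A region covered or lay within 1 kb of the start of 151 of the 170 genes, in 149 distinct regions. At cytosolic genes the median start region held 156 CPM per kb of region in NR4A2 hearts and 175 CPM per kb in Control hearts (82 regions). At mitochondrial genes it held 112 CPM per kb in NR4A2 hearts and 125 CPM per kb in Control hearts (68 regions). Over all 8378 regions within 1 kb of any protein-coding start the medians were 102 and 116 CPM per kb in NR4A2 and Control hearts. The start regions of cytosolic genes thus had more signal per length than those of mitochondrial genes in each group, and the 10 highest levels per kb all belonged to cytosolic genes, as did 19 of the 20 highest.

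Large and small subunits had close medians within each ribosome. Median start regions held 155 CPM per kb in NR4A2 and 174 CPM per kb in Control hearts at large-subunit cytosolic genes, and 160 and 176 CPM per kb in NR4A2 and Control hearts at small-subunit cytosolic genes. At mitochondrial genes the medians were 111 CPM per kb in NR4A2 and 124 CPM per kb in Control hearts for the large subunit, and 116 and 128 CPM per kb in NR4A2 and Control hearts for the small. Among the highest per kb, Rps26 held 238 ± 45 CPM per kb in NR4A2 and 277 ± 30 in Control hearts (SD, n = 3 each), and Rps2 held 229 ± 27 in NR4A2 and 253 ± 50 in Control hearts. Their levels did not differ beyond their spread. Among genes with an annotated start the lowest mean over all mice was that of Mrps15, at 58.7 ± 0.95 CPM per kb in NR4A2 and 75.2 ± 24 in Control hearts (chosen after its values were seen). For 30 of the 170 genes, such as Rpl17, no start is annotated and either gene end stood for it, so the region taken may not be the one at the start.

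**Figure D1:**
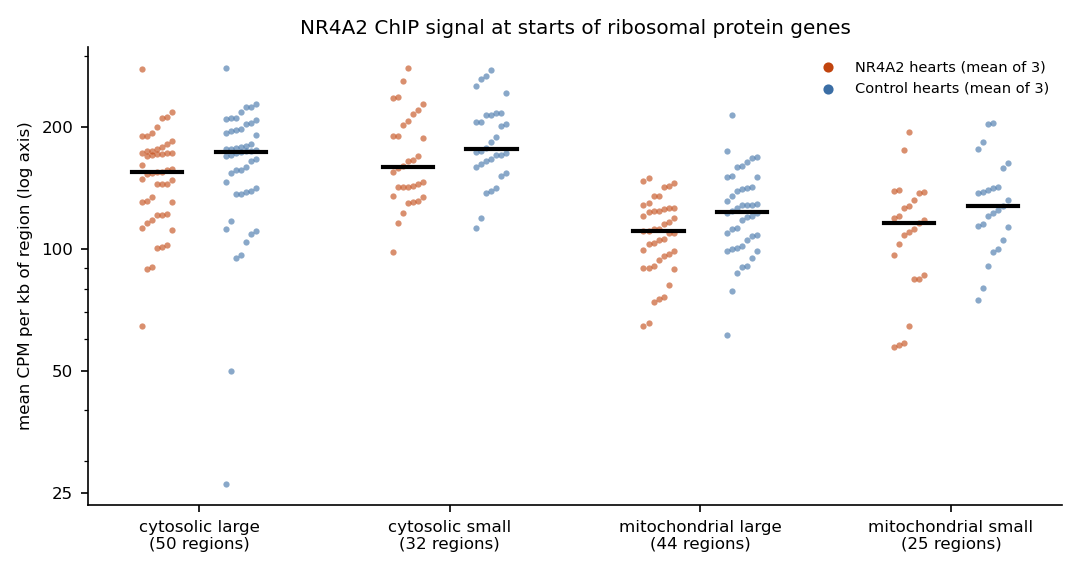
Mean CPM per kb of region (log axis) in the start region of each ribosomal protein gene, by subunit, for NR4A2 hearts (orange, left in each pair) and Control hearts (blue). Points are regions, each the mean of 3 mice, and black lines are medians. The lowest cytosolic points are an Rpl17 region placed by gene end. Cytosolic medians lie above mitochondrial ones in both groups, with medians of 156 and 112 CPM per kb in NR4A2 hearts.

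The median signal at ribosomal protein starts was slightly lower in NR4A2 hearts, as was the median over all gene starts. Per mouse, the median cytosolic start region held 98.8, 99.3 and 95.9 CPM in NR4A2 hearts, against 122, 110 and 102 CPM in Control hearts. The median mitochondrial start region held 51.1, 48.1 and 52.3 CPM in NR4A2 hearts, against 58.9, 60.8 and 54.3 CPM in Control hearts. Neither pair of groups overlapped. All regions near a start showed the same order, with medians of 54.4, 52.0 and 54.2 CPM in NR4A2 hearts and 59.4, 59.4 and 63.4 CPM in Control hearts. The fold change was negative at 114 of the 149 start regions, with a median of -0.14 on the log2 scale at cytosolic and -0.17 at mitochondrial genes, beside -0.19 over all regions near a start. It lay within 0.5 of 0 at 87.2% of the start regions, against 80.1% of all regions near a start. CPM were scaled closely to each library's reads in regions, so they are relative levels. The share of the CPM near any start was 65.4%, 62.9% and 62.8% in NR4A2 hearts and 69.5%, 69.3% and 72.0% in Control hearts. The part of that share in the difference was not tested.

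Nearly all of the strongest start regions did not pass the test, the exception being the Mrpl49 region. Rps6, a small-subunit protein whose phosphorylation is a common readout of mTOR signalling, had 232, 188 and 198 CPM at its start in NR4A2 hearts, against 184, 255 and 205 CPM in Control hearts. The mice of both groups overlapped, and the log2 fold change was -0.05 ± 0.17 (SE; adjusted p = 0.875). Rps26, a protein at the messenger RNA exit of the small subunit, and Rps2, at the messenger RNA entry, had log2 fold changes of -0.23 ± 0.18 and -0.13 ± 0.18. Rpl7a gave -0.33 ± 0.18. Among the acidic stalk proteins, which recruit elongation factors, Rplp1 gave -0.02 ± 0.18, Rplp2 -0.07 ± 0.23 and Rplp0, the stalk base, -0.49 ± 0.20 (adjusted p = 0.0732). Rplp0 had 110, 83.5 and 97.1 CPM in NR4A2 hearts, against 138, 132 and 136 CPM in Control hearts, and although the groups did not overlap it was not called. Rpsa, which is both a small-subunit protein and a laminin receptor, had 90.7, 101 and 78.2 CPM in NR4A2 hearts and 79.9, 77.9 and 107 CPM in Control hearts, with a log2 fold change of 0.04 ± 0.22.

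Among mitochondrial genes, the region nearest the Mrps18b start, 5688 bp long, lay 183 bp from it and nearest to the start of Ppp1r10, with 1105, 1225 and 998 CPM in NR4A2 hearts and 1344, 1252 and 909 CPM in Control hearts. The groups overlapped (log2 fold change -0.06 ± 0.15, adjusted p = 0.831). Mrps28 and Mrps23, also of the small subunit, gave 0.06 ± 0.19 and -0.06 ± 0.20. In the large subunit, Mrpl48 gave -0.17 ± 0.19 and Mrpl40, whose region lay nearest the start of the histone chaperone gene Hira, -0.34 ± 0.21. None of these 5 was called, whereas Mrpl49, also among the strongest of its subunit, was lower (-0.67 ± 0.20, adjusted p = 0.0107) and is described with Fau, which shares the region.

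Of the 272 regions, 12 (4.41%) were higher and 9 (3.31%) lower in NR4A2 hearts, while 14.7% of all regions in the table were higher and 3.17% lower. The share of higher regions was well below that of the whole table and the share of lower regions was near it. At an unadjusted p under 0.05 the counts were 17 higher and 23 lower. By gene, 10 of the 154 genes had at least 1 higher region (5 cytosolic, 5 mitochondrial) and 8 had a lower one, while 14.2% of all 11154 genes with a region had a higher and 6.25% a lower one. The median log2 fold change was -0.13 at cytosolic and -0.14 at mitochondrial genes, beside -0.06 over all regions. Without NR4A2 mouse 3 the higher count was 6, and the lower count was 5 without NR4A2 mouse 1, NR4A2 mouse 3, Control mouse 1 or Control mouse 3. With no scaling between libraries, which leaves their differences in read depth uncorrected, limma called 3 regions higher and 0 lower. At an unadjusted p under 0.05 that fit gave 3 lower. With depth corrected, edgeR called 12 higher and 10 lower and DESeq2 10 higher and 5 lower. The authors' deposited calls were 13 up (4.78%) and 3 down (1.10%), beside 14.9% and 1.95% of all regions.

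Higher calls lay mostly away from gene starts and lower calls near them, as in the table as a whole. Of the ribosomal protein regions, 81.6% lay within 1 kb of some protein-coding start, against 49.6% of all regions. Among those 222 regions 4 (1.80%) were higher and 9 (4.05%) lower, beside 1.81% higher and 4.19% lower among all regions near a start. Among the 50 regions farther away 8 (16.0%) were higher, beside 27.3% of all such regions. Lower calls there numbered 0 in limma, with 4 at an unadjusted p under 0.05, and 0 in edgeR and DESeq2, beside 2.17% of all such regions. Near starts the shares were close to those of other genes, and away from starts the higher share was below the background. No test of these differences between shares was made. By distance from the gene's own start, the median log2 fold change was -0.15 for the 142 regions that covered it, -0.12 for 25 regions within 1000 bp, 0.16 for 37 regions beyond that up to 5000 bp, -0.22 for 44 regions up to 10000 bp and 0.12 for 24 regions farther away.

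**Figure D2:**
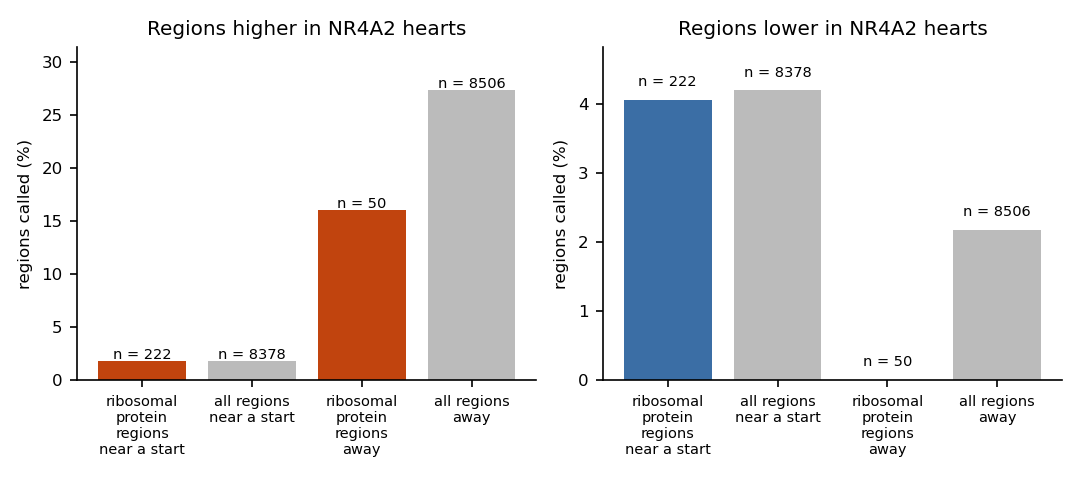
Percent of regions called higher (left panel) and lower (right panel) in NR4A2 hearts, for ribosomal protein regions (coloured) and all regions (grey), within 1 kb of a protein-coding start and farther away. The bars for ribosomal protein and all regions near a start are of similar height, at 1.80% and 1.81% higher, and both higher shares are larger away from starts.

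**Figure D3:**
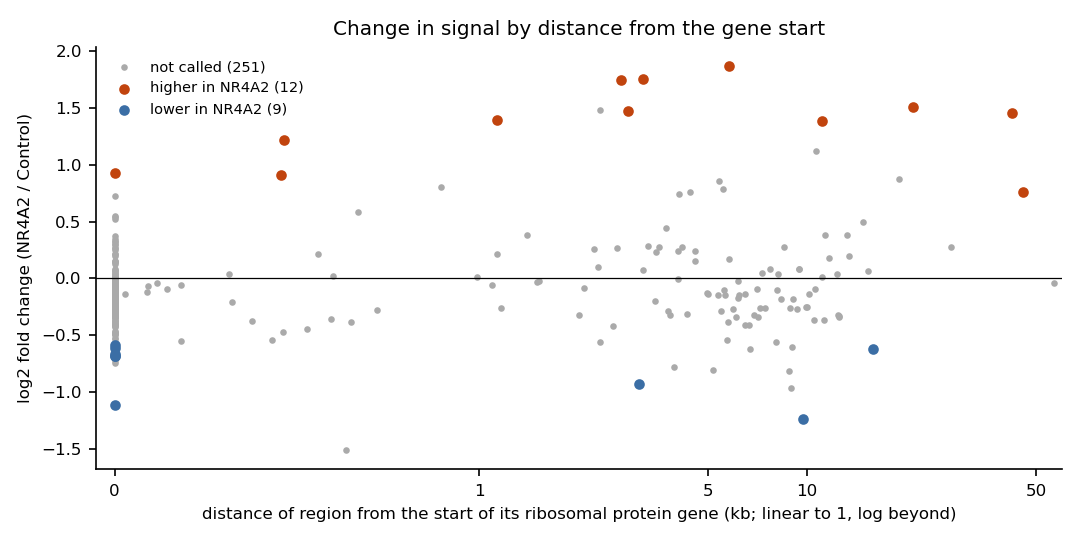
Log2 fold change (NR4A2 over Control) of each of the 272 regions against its distance from the start of its ribosomal protein gene in kb (linear to 1, log beyond). Orange points are the 12 regions called higher, blue points the 9 called lower and grey points the 251 not called. Among regions that cover the start, or a gene end where no start is annotated, 1 was higher and 6 were lower.

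The regions also belonged to other genes: 228 of the 272 lay within reach of another protein-coding gene, and the nearest start was that of a ribosomal protein gene for 174. Of the 12 higher regions 7 lay nearest a ribosomal protein start, and of the 9 lower regions 3 did. Where the nearest start was that of another gene, that gene is named. The gene table gives spans but no exons, so exon, intron and UTR were not told apart.

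Rpl3l was the only gene of the group with a higher region over an annotated start, and its paralog Rpl3 had 1 higher region outside and 1 inside the gene. RPL3L replaces RPL3 in ribosomes of adult heart and skeletal muscle, while Rpl3 is expressed in most tissues. The Rpl3l region (chr17:24732294-24733078) had 50.6, 74.1 and 112 CPM in NR4A2 hearts, against 46.1, 32.1 and 39.8 CPM in Control hearts. Every NR4A2 mouse was above every Control mouse, with NR4A2 mouse 3 far above the others, and the log2 fold change was 0.93 ± 0.28 (adjusted p = 0.0100). It was not called without NR4A2 mouse 3 or Control mouse 2 (adjusted p up to 0.207). The region covered the downstream of 2 annotated starts, at position 24732685 of chromosome 17, and did not touch the window of the upstream one at 24727826. The other 5 regions within reach of Rpl3l, including the start region of the neighbouring gene Rps2, were not called.

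Rpl3 had 3 regions, and the gene table gives no strand for it. The region 456 bp outside the gene (chr15:80076194-80077325) had 79.3, 102 and 120 CPM in NR4A2 hearts, against 63.5, 54.5 and 41.6 CPM in Control hearts. The groups did not overlap, with a log2 fold change of 0.91 ± 0.24 (adjusted p = 0.00305), and the call was lost without NR4A2 mouse 3 (adjusted p = 0.0672). A second region lay inside the gene (chr15:80081768-80082273), 1133 bp from the opposite end, with 31.5, 34.7 and 44.1 CPM in NR4A2 hearts and 27.7, 14.6 and 5.43 CPM in Control hearts. It too separated the groups, by 1.40 ± 0.43 on the log2 scale (adjusted p = 0.0139), with Control mouse 3 at 3 reads, and it was not called without Control mouse 3 or NR4A2 mouse 3 (adjusted p up to 0.164) or in DESeq2 (adjusted p = 0.107). The strongest Rpl3 region, over that opposite end, had 175, 230 and 169 CPM in NR4A2 hearts and 165, 185 and 70.6 CPM in Control hearts. Its groups overlapped and it was not called (log2 fold change 0.55 ± 0.30, adjusted p = 0.269), but it was without Control mouse 2 (adjusted p = 0.00652).

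The other higher regions at cytosolic genes did not cover a start. Rps15a, a small-subunit protein that is mutated in some families with Diamond-Blackfan anaemia, had a region 3168 bp upstream of its start (chr7:118119315-118119624). It held 34.4, 20.5 and 31.5 CPM in NR4A2 hearts, against 9.22, 8.76 and 5.43 CPM in Control hearts. All NR4A2 mice were above all Control mice, which had 9 reads or fewer there (log2 fold change 1.76 ± 0.50, adjusted p = 0.00654, 0.0596 without NR4A2 mouse 1). The Rps15a start region, at 124, 142 and 98.4 CPM in NR4A2 and 124, 158 and 118 CPM in Control hearts, overlapped between groups (log2 fold change -0.14 ± 0.19).

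A region 8605 bp beyond Rpl7a, a large-subunit protein gene, lay nearest Surf1, a cytochrome c oxidase assembly factor (chr2:26921917-26922410). It had 34.4, 34.7 and 55.5 CPM in NR4A2 hearts, against 17.4, 17.5 and 10.9 CPM in Control hearts. The groups did not overlap (1.38 ± 0.39, adjusted p = 0.00682), and the call was lost without NR4A2 mouse 3 (adjusted p = 0.0908). Rpl17, a large-subunit protein near the exit of the nascent chain, had a higher region inside the gene, 464 bp from its nearer end, with 22.0, 25.2 and 39.1 CPM in NR4A2 hearts and 15.4, 10.7 and 9.05 CPM in Control hearts. The groups were apart but close, the adjusted p was 0.0497, and leaving out any mouse other than Control mouse 1 ended the call (adjusted p up to 0.230). The call was also lost in edgeR (adjusted p = 0.0523), in DESeq2 (0.0870) and with 0.5 in place of 1 added to the CPM (0.0515). The strongest Rpl17 region averaged 167 CPM in NR4A2 and 175 CPM in Control hearts and was not called.

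**Figure D4:**
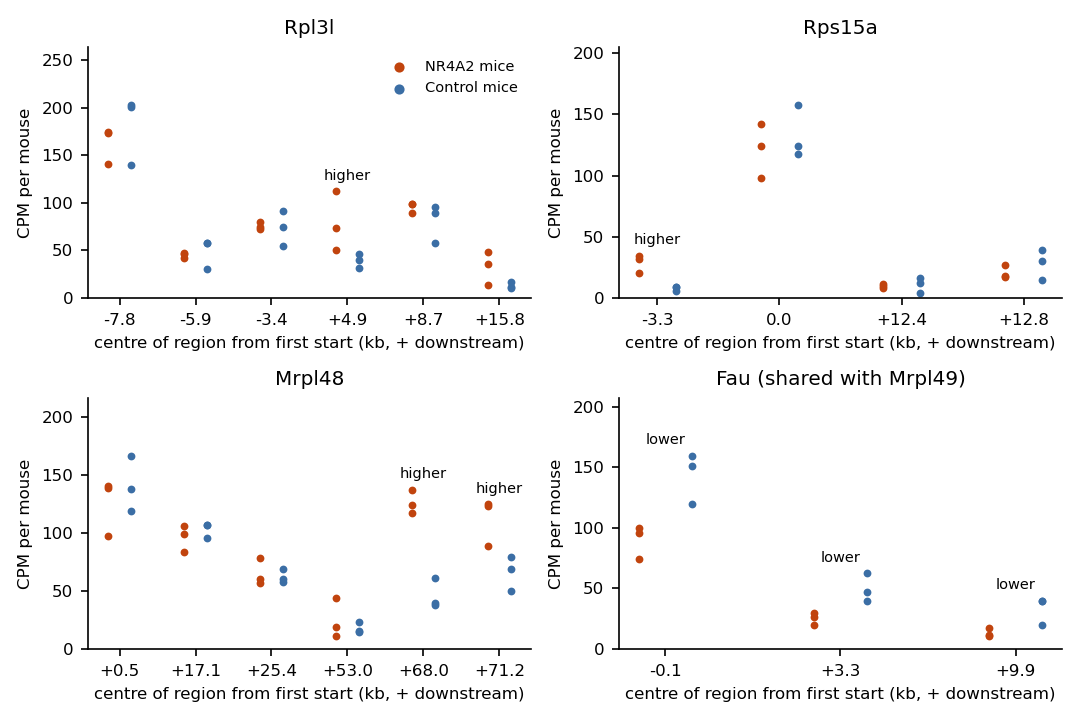
CPM per mouse in each region within reach of Rpl3l, Rps15a, Mrpl48 and Fau, ordered by the distance of the region's centre from the gene's first annotated start in kb. NR4A2 mice are orange and Control mice blue, and the words mark called regions. The Rps15a and Mrpl48 start regions overlap between groups while their called regions do not, and all 3 Fau regions are lower in NR4A2 hearts.

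The higher regions at mitochondrial genes did not cover starts either. Mrpl48, of the large subunit, had the region with the smallest adjusted p of the group, 4761 bp beyond the gene's downstream end and nearest Coa4, another cytochrome c oxidase assembly factor (chr7:100539649-100541018). It had 124, 137 and 117 CPM in NR4A2 hearts, against 61.5, 38.0 and 39.8 CPM in Control hearts. The groups were far apart, by 1.45 ± 0.23 on the log2 scale (adjusted p = 9.86e-07). A neighbouring region 8383 bp beyond the gene had 88.8, 123 and 125 CPM in NR4A2 hearts and 50.2, 79.8 and 68.8 CPM in Control hearts. It separated the groups by less (0.76 ± 0.22, adjusted p = 0.00890) and was not called without Control mouse 1 or NR4A2 mouse 3 (adjusted p up to 0.0956). The start region of Mrpl48 overlapped between groups.

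Mrps35, a small-subunit protein, had a region inside the gene (chr6:147064893-147065107) with 33.4, 29.9 and 29.0 CPM in NR4A2 hearts and 3.07, 12.7 and 10.9 CPM in Control hearts. Its log2 fold change of 1.87 ± 0.50 was the largest of the called regions (adjusted p = 0.00330), with Control mouse 1 at 3 reads, while its start region averaged 61.8 CPM in NR4A2 and 63.4 CPM in Control hearts and was not called. Mrpl14, of the large subunit, had a region inside the gene (chr17:45689058-45689411), 2709 bp from the start, with 36.3, 23.6 and 42.9 CPM in NR4A2 hearts and 12.3, 4.87 and 12.7 CPM in Control hearts. The groups did not overlap (1.75 ± 0.46, adjusted p = 0.00330), and the call was lost without NR4A2 mouse 3 (adjusted p = 0.0533). At its start Mrpl14 averaged 54.4 CPM in NR4A2 and 60.5 CPM in Control hearts, with a log2 fold change of -0.01.

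Mrps18a and Mrps34, both of the small subunit, each had a higher region beyond the gene. That at Mrps18a (chr17:46132081-46132523), 3173 bp beyond the gene and nearest the radial spoke gene Rsph9, had 51.6, 39.4 and 61.8 CPM in NR4A2 hearts and 19.5, 12.7 and 19.9 CPM in Control hearts. That at Mrps34 (chr17:24899132-24899574), 2843 bp beyond the gene and nearest the nucleoside diphosphate kinase gene Nme3, had 37.2, 59.9 and 49.2 CPM in NR4A2 hearts and 19.5, 14.6 and 16.3 CPM in Control hearts. Every NR4A2 mouse exceeded every Control mouse at both, with log2 fold changes of 1.50 ± 0.36 (adjusted p = 0.00108) and 1.47 ± 0.37 (adjusted p = 0.00168). These regions, the Mrps35 region and the stronger Mrpl48 region were the 4 of 21 called regions that stayed called whichever mouse was left out.

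Of the 9 lower regions 6 covered a ribosomal protein start, against 1 of the 12 higher ones and 142 of all 272 regions, and 3 belonged to 1 locus. The Rps27a region is among these 6 by gene end, since no start is annotated for that gene. Fau encodes a ubiquitin-like protein fused to the small-subunit protein S30, and Mrpl49 a large-subunit mitochondrial protein. Their starts lie 192 bp apart on opposite strands, and 1 region (chr19:6057541-6058207) covers both. It had 100, 74.1 and 95.9 CPM in NR4A2 hearts, against 120, 151 and 159 CPM in Control hearts. Every NR4A2 mouse was below every Control mouse (log2 fold change -0.67 ± 0.20, adjusted p = 0.0107), although the call was lost without NR4A2 mouse 2 or Control mouse 2 (adjusted p up to 0.0809). Downstream of Fau, a region nearest Znhit2 (chr19:6061032-6061534) had 26.7, 29.9 and 20.2 CPM in NR4A2 hearts and 62.5, 39.9 and 47.1 CPM in Control hearts. A region nearest the sterol reductase gene Tm7sf2 (chr19:6067701-6068014) had 10.5, 17.3 and 11.4 CPM in NR4A2 hearts and 40.0, 19.5 and 39.8 CPM in Control hearts. Neither overlapped between groups (log2 fold changes -0.93 ± 0.33 and -1.24 ± 0.43, adjusted p = 0.0375 and 0.0340), and both were lost without NR4A2 mouse 1, NR4A2 mouse 3, Control mouse 1 or Control mouse 3 (adjusted p up to 0.215 and 0.180). DESeq2 did not call the region nearest Znhit2 (adjusted p = 0.0620).

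The other starts with lower signal came from both ribosomes. Mrps14, of the mitochondrial small subunit, had 21.0, 18.9 and 30.3 CPM (chr1:160194974-160195381) in NR4A2 hearts, against 53.3, 50.6 and 48.9 CPM in Control hearts. It was the most reduced start, by -1.12 ± 0.33 on the log2 scale with no overlap (adjusted p = 0.0104), and was lost without Control mouse 1 (adjusted p = 0.0505). Rps27a, a fusion of ubiquitin with a small-subunit protein, had 91.7, 86.7 and 87.0 CPM (chr11:29547590-29548485) in NR4A2 hearts and 156, 137 and 136 CPM in Control hearts. Its mice were tightly grouped and apart (-0.68 ± 0.20, adjusted p = 0.00752, and 0.0526 without Control mouse 1), and the nearest start was that of Clhc1. No start is annotated for Rps27a, and the region covered one of its gene ends. Rpl14, of the large subunit, had 64.9, 44.1 and 55.5 CPM (chr9:120571372-120571790) in NR4A2 hearts and 94.3, 75.9 and 94.1 CPM in Control hearts. The groups did not overlap (-0.68 ± 0.24, adjusted p = 0.0347), and it was not called without NR4A2 mouse 2, NR4A2 mouse 3, Control mouse 1 or Control mouse 3 (adjusted p up to 0.160), or in DESeq2 (adjusted p = 0.0943).

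Mrps7, an early-assembling protein of the mitochondrial small subunit, shared its start region (chr11:115603586-115604374) with Gga3, a Golgi sorting adaptor. It had 86.9, 82.0 and 75.7 CPM in NR4A2 hearts and 112, 127 and 136 CPM in Control hearts. The difference of -0.61 ± 0.20 (adjusted p = 0.0257) separated the groups and was lost without NR4A2 mouse 3, Control mouse 2 or Control mouse 3 (adjusted p up to 0.0973) and in DESeq2 (adjusted p = 0.0548). Mrpl53 (chr6:83108779-83109417, nearest Ccdc142) had 68.7, 70.9 and 73.2 CPM in NR4A2 hearts and 95.3, 99.3 and 129 CPM in Control hearts. The groups were apart (-0.58 ± 0.22, adjusted p = 0.0481), but leaving out any of the 6 mice ended the call (adjusted p up to 0.214), as did DESeq2 (adjusted p = 0.0973). Mrpl58, a peptidyl-tRNA hydrolase built into the mitochondrial ribosome, reached a lower region 6962 bp beyond the gene and nearest Atp5h, an ATP synthase subunit (chr11:115419636-115420419). That region had 89.8, 89.8 and 103 CPM in NR4A2 hearts and 144, 144 and 148 CPM in Control hearts, a clear separation (-0.62 ± 0.19, adjusted p = 0.0146) that was lost without NR4A2 mouse 1 (adjusted p = 0.0577). None of the 9 lower regions stayed called whichever mouse was left out.

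**Figure D5:**
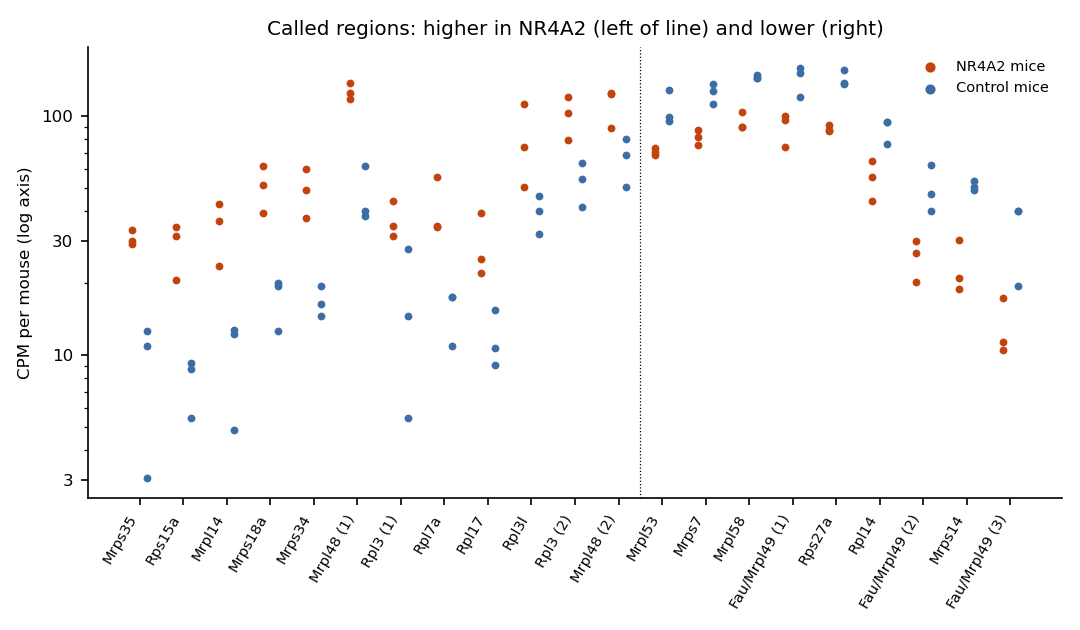
CPM per mouse (log axis) in the 21 called regions, NR4A2 mice in orange and Control mice in blue, ordered by fold change and named by ribosomal protein gene, with a number where a gene has several. The 12 regions left of the dotted line were higher and the 9 right of it lower in NR4A2 hearts. In no region do the groups overlap, and the largest gains are at regions with few reads in Control hearts.

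The promoter windows of these genes were searched for letters of NR4A2 and of common promoter factors, and the shares below are descriptions whose differences were not tested. The search covered 250 bases before to 50 after each start, both strands, in windows touched by a region: 72 windows of 62 cytosolic genes, 65 windows of 59 mitochondrial genes and 7460 windows of all genes, these genes included. A gene with several starts counts once for each, and such windows can overlap. The half-site AGGTCA, which is also part of the NBRE, was in 9.72% of cytosolic and 15.4% of mitochondrial windows, beside 11.0% of all. The NBRE itself was in 4.17% of cytosolic windows, which were 3 overlapping windows of Rpl35a, and in 0% of mitochondrial windows, beside 0.952% of all. The ETS letters were in 34.7% of cytosolic and 33.8% of mitochondrial windows, beside 22.4% of all, and the YY1 letters in 11.1% and 18.5%, beside 5.86% of all. NRF1 letters were in 4.17% of cytosolic and 12.3% of mitochondrial windows, beside 6.61% of all, and the GC box GGGCGG in 63.9% and 49.2%, beside 71.1% of all.

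A C within 2 bases of the start followed by 4 pyrimidines, as in messages controlled through mTOR, was in 31.9% of cytosolic windows, 12.3% of mitochondrial windows and 9.72% of all windows. The Rpl3l window printed above held AGGTCA 3 times, beginning at bases -242, -215 and -43 relative to the start. Of the 7460 covered windows 4, this one included, held it at least as often. The count compared is that of Rpl3l itself, which was shown because its start region was called. Rpl35a, with the NBRE beginning at base -63 of the printed window, had 112, 74.1 and 82.0 CPM in NR4A2 hearts and 82.0, 78.8 and 52.5 CPM in Control hearts. Its groups overlapped and it was not called (log2 fold change 0.33 ± 0.23, adjusted p = 0.368). Among start regions with a promoter entry, 1 of the 15 with the half-site (Rpl3l) was higher and 1 (Mrpl53) lower, with a median log2 fold change of -0.15, and 4 of the 104 without it were lower, also with a median of -0.15. A match is a run of letters and not a measured site.

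Genes that make or serve ribosomes without being part of them gave few calls, led by a gain at Ubtf. In each list the called regions were counted per gene, beside the 14.2% of all genes with a higher and 6.25% with a lower region. Of 39 ribosome biogenesis genes with a region, 2 had a higher one. They were Ubtf, the RNA polymerase I transcription factor, and Polr1a, the largest subunit of that polymerase. The Ubtf region (chr11:102331938-102332325), 8289 bp outside the gene, had 38.2, 77.2 and 103 CPM in NR4A2 hearts, against 7.17, 2.92 and 18.1 CPM in Control hearts. All NR4A2 mice were above all Control mice, by 3.01 ± 0.44 on the log2 scale (adjusted p = 6.20e-07, and up to 0.00173 with a mouse left out). Control mouse 2 had 3 reads there. Polr1a gave 1.61 ± 0.53 (adjusted p = 0.0216) and was lost without NR4A2 mouse 2, NR4A2 mouse 3 or Control mouse 3 (adjusted p up to 0.139). Rrp1, a pre-ribosomal RNA processing factor, was the 1 lower gene (-0.66 ± 0.24, adjusted p = 0.0404) and was lost without NR4A2 mouse 3, Control mouse 2 or Control mouse 3 (adjusted p up to 0.363).

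Of 45 cytosolic translation factor genes with a region, 3 had a higher and 3 a lower one. The higher regions were inside Gspt1, which encodes the release factor eRF3a, and nearest the start of LOC115488671 (1.76 ± 0.35, adjusted p = 6.38e-05), at Eif4ebp1, the mTOR-controlled inhibitor of cap-dependent initiation (1.73 ± 0.38, adjusted p = 0.000298), and at Eif3m (2.30 ± 0.71, adjusted p = 0.0136), a subunit of an initiation factor. The first 2 stayed called whichever mouse was left out, and Eif3m was lost without NR4A2 mouse 3 or Control mouse 3 (adjusted p up to 0.135). The Eif3m region had 16.2, 18.9 and 30.3 CPM in NR4A2 hearts and 9.22, 7.79 and 0 CPM in Control hearts, so its fold change is uncertain. The lower ones covered the starts of Eif5a (-0.83 ± 0.27), Eif2s1, in a region nearest Atp6v1d (-0.79 ± 0.26), and Eif4g1 (-0.63 ± 0.22). Each of them lost its call without Control mouse 2 (Eif5a and Eif4g1 also without NR4A2 mouse 3 or Control mouse 3, Eif4g1 without NR4A2 mouse 1 and Eif2s1 without NR4A2 mouse 2), with adjusted p up to 0.118, 0.330 and 0.171.

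Of 48 mitochondrial translation genes, 3 had a higher region, at the ribosomal RNA methyltransferase gene Mrm1, 5858 bp outside it and nearest Dhrs11 (0.86 ± 0.24), the recycling factor gene Mrrf (1.11 ± 0.39) and Lrpprc, a stabiliser of mitochondrial messages (1.03 ± 0.37). Without Control mouse 3 all of them lost the call, as did Mrm1 without NR4A2 mouse 1, Mrrf without NR4A2 mouse 2, NR4A2 mouse 3 or Control mouse 1, and Lrpprc without NR4A2 mouse 1, NR4A2 mouse 3 or Control mouse 1 (adjusted p up to 0.0557, 0.137 and 0.282). Among all these genes that are not ribosomal proteins, DESeq2 kept the calls at Ubtf, Gspt1, Eif4ebp1 and Mtif2 only. The 1 lower gene, the initiation factor gene Mtif2, was reached by the same region as Rps27a. All 18 ribosomal protein genes linked to Diamond-Blackfan anaemia had a region, and Rps15a was the only one with a call. Of 13 genes that belong to ribosomal protein paralog pairs and had a region, the 2 with a higher region were Rpl3 and Rpl3l.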

How the data were processed

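ChIP-seq of mouse ventricle was read from 1 table of 16884 regions with a column per mouse. The submitters' processing notes name BWA as aligner and GRCm38 (mm10) as build; the peak caller, the counter and any use of the added fruit fly chromatin in scaling are not stated there or in the labels. CPM were deposited by the authors, and 100% of them were whole multiples of 1 read (tolerance 0.001), so reads could be recovered. The CPM sum to nearly the same total in every library, so a difference between groups in total signal cannot be seen in them. Regions held a median of 20 to 40 reads, depending on the library. Of the log2 fold changes, p-values and FDR in the authors' deposited table only the resulting calls were counted. At ribosomal protein genes they were 13 up (4.78%) and 3 down (1.10%), against 2521 (14.9%) and 329 (1.95%) in all.

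Groups were compared with limma 3.58.1 (R 4.3.3, trend and robust) on log2(CPM + 1) over all regions, unfiltered, with Benjamini-Hochberg adjustment, and as alternatives with edgeR 4.0.16 and DESeq2 1.42.0 on recovered reads. The limma and edgeR steps were tested on simulated data. Genes, starts and promoters came from RefSeq GRCm38.p6; where no promoter entry gave a start (30 of 170 genes), either gene end stood for it. Regions were named if called, if among the 3 strongest start regions of a subunit class, or if at Rplp0, Rplp1, Rplp2, Rpsa, Fau, Rpl3 or Rpl3l, with up to 3 genes per direction of each further list. Genes and lists were chosen with earlier results of these data known. The antibody test and input samples were not analysed here.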

Additional observations from a re-analysis of the deposited data

How the results depend on the processing

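Against 12 higher and 9 lower ribosomal protein regions, edgeR gave 12 and 10 and DESeq2 10 and 5. With no scaling between libraries, so with read depth uncorrected, limma gave 3 and 0. Over regions of at least median signal only, limma gave 4 and 4. Counting only regions that overlap the gene span gave 5 higher, only those within 1 kb of the start 3 higher, and only those whose nearest start is a ribosomal protein gene 7 higher and 3 lower, an alternative chosen after seeing the data. Leaving out 1 mouse at a time gave 6 to 12 higher and 5 to 7 lower regions, with medians of -0.18 to -0.08 at cytosolic and -0.20 to -0.12 at mitochondrial genes. Over all regions edgeR called 2530 higher and 543 lower, DESeq2 2177 and 251, no scaling 1391 and 14, the median-signal fit 481 and 235 of 8442, and leaving out 1 mouse 1577 to 2332 and 270 to 454, beside 2475 and 536. Some uncalled start regions near 0 changed sign when a mouse was left out, with log2 fold changes from -0.164 to 0.0668 for Rplp1, -0.155 to 0.0777 for Rps6, -0.231 to 0.0514 for Mrps18b, -0.186 to 0.0166 for Mrps23, -0.242 to 0.114 for Rplp2 and -0.0507 to 0.179 for Rpsa. The causes were not tested. Mouse numbers shared by the groups did not pair the mice (correlations of deviations -0.07, 0.06 and 0.03), and a replicate block by mouse number gave 13 higher and 10 lower, with the strongest Rpl3 region called (adjusted p = 0.0223). Regions with few reads, such as those with 3 in a Control mouse, have the least certain fold changes.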
